A study of Mus musculus with 4 samples.

Results

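The cornified envelope genes of the mouse epidermal differentiation complex were followed across 4 Affymetrix arrays of primary keratinocytes. The members are the genes whose symbol starts with Lce (late cornified envelope) or Sprr (small proline-rich), together with Lor, Ivl, Flg, Flg2, Rptn, Crct1, Hrnr, Tchh and Smcp, and they were taken by name from the platform annotation of the probe sets. Of 18193 genes with a probe set of their own, 32 met this rule, through 39 probe sets. They comprise 11 Lce1 genes, 4 Lce3 genes, 2 Sprr1 genes, 6 Sprr2 genes, Sprr3, 4 genes of the S100-fused type (Flg, Hrnr, Rptn and Tchh), and Crct1, Ivl, Lor and Smcp. No probe set was annotated to Flg2 alone. For each gene the set of highest mean signal was used. For 6 members this was a set with the suffix _x_at (Lce1a1, Lce1d, Lce1h, Lce1i, Lce3b and Lce3c) and for 2 with _s_at (Lce1m and Sprr2h), suffixes that Affymetrix gives to sets whose probes can also match other transcripts.

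The keratinocytes were isolated from newborn C57BL/6 mice and cultured, and they carry the genotype label WT or p38a-KO. Arrays were made from unirradiated WT cells, from WT cells 4 h after ultraviolet B (UVB) at 75 mJ/cm2, from unirradiated p38a-KO cells, and from p38a-KO cells 4 h after the same dose. The label p38a stands for p38alpha, a stress-activated kinase encoded by Mapk14. How the gene was deleted, how many animals a culture came from, and any 4 h culture without UVB are not described in the labels. There is 1 array for each group, so differences between 2 arrays carry no check against replicates, and precision is limited by how few arrays there are. Mapk14 itself, by its brightest probe set, read 985.4 units without and 292.5 after UVB in WT, and 1449 and 646.8 in p38a-KO cells. By this set, 1 of 6 annotated to Mapk14, signal was not lower under the KO label, and the other sets are not given here. Whether this probe set lies in the deleted part is unknown. These cells are therefore called KO-labelled, and every genotype direction rests on the labels.

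Values are MAS5 signal, the intensity summary of a probe set, in linear units as deposited. No detection calls were used; in their place a floor of 24.9 units, the median over probe sets of the 4-array mean, marks the level below which a value is treated as background and raised to the floor. Where 1 side of a ratio is in the background, the ratio is written as "at least". Differences are on the log2 scale, and a gene counts as higher or lower at 2-fold or more. Signal was lower across the irradiated arrays. Over the 11379 genes whose mean signal reached the floor, the median log2 difference after UVB was -0.70 in WT and -0.82 under the KO label as deposited. Quantile normalization moved these medians to 0.05 and 0.06, and median centring to 0.32 and 0.28. UVB responses are therefore given with the quantile-normalized value where the scaling matters. The difference between genotypes depends less on it, with a median over all genes between 0.00 and 0.16 in unirradiated cells and between -0.02 and 0.05 after UVB.

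The cornified envelope is the cross-linked protein shell that replaces the plasma membrane as a keratinocyte of the epidermis completes its differentiation. Involucrin is laid down early as a scaffold, loricrin and the small proline-rich proteins are then joined to it by transglutaminases, and the late cornified envelope proteins are added last. Filaggrin and the other proteins of the S100-fused type bundle keratin or join the envelope. Their genes lie side by side on chromosome 3, in families that arose by repeated duplication.

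Of the 32 members, 17 were at or above the floor on all 4 arrays, 6 on 3 arrays, 1 on 2 arrays, 3 on 1 array and 5 on none. In WT, 24 members reached the floor without and 26 after UVB; under the KO label 22 did without and 19 after UVB. The 24 members whose mean signal reached the floor enter the counts below; some pass only because they are high on 1 array, so these counts do not stand for the whole family. Hrnr, Lce1c, Lce1l, Lce1m and Rptn were below the floor everywhere. Lce1g and Lce3a reached it only in irradiated WT cells, at 35.9 and 39.5 units, and Smcp, whose product is known from sperm mitochondria, only in unirradiated KO-labelled cells, at 33.7 units.

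Lce3, most Sprr2 and some Lce1 genes were higher after UVB in WT cells, and fewer of them passed 2-fold in KO-labelled cells. Ivl, Flg and Sprr3 were lower as deposited, with WT differences of only -0.28, -0.21 and -0.19 after quantile normalization. In WT cells 9 of the 24 members were at least 2-fold higher after UVB, against 0.580% of all 11379 genes, and 3 were at least 2-fold lower, against 34.8%. In KO-labelled cells 2 were at least 2-fold higher, against 0.167% of all genes, and 2 at least 2-fold lower, against 39.3%. Quantile normalization gave 11 of 24 higher in WT (5.39% of all genes) and 7 of 24 in KO-labelled cells (4.18% of all genes). It gave 0 lower in either, against 9.50% and 8.15% of all genes. Median centring gave 15 higher in WT, against 11.3% of all genes. As deposited, the members had a median difference of 0.36 in WT and of -0.20 under the KO label, and 0.98 and 0.52 after quantile normalization. The members' shares at 2-fold higher lay above the share of all genes under each of these scalings.

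**Figure D1:**
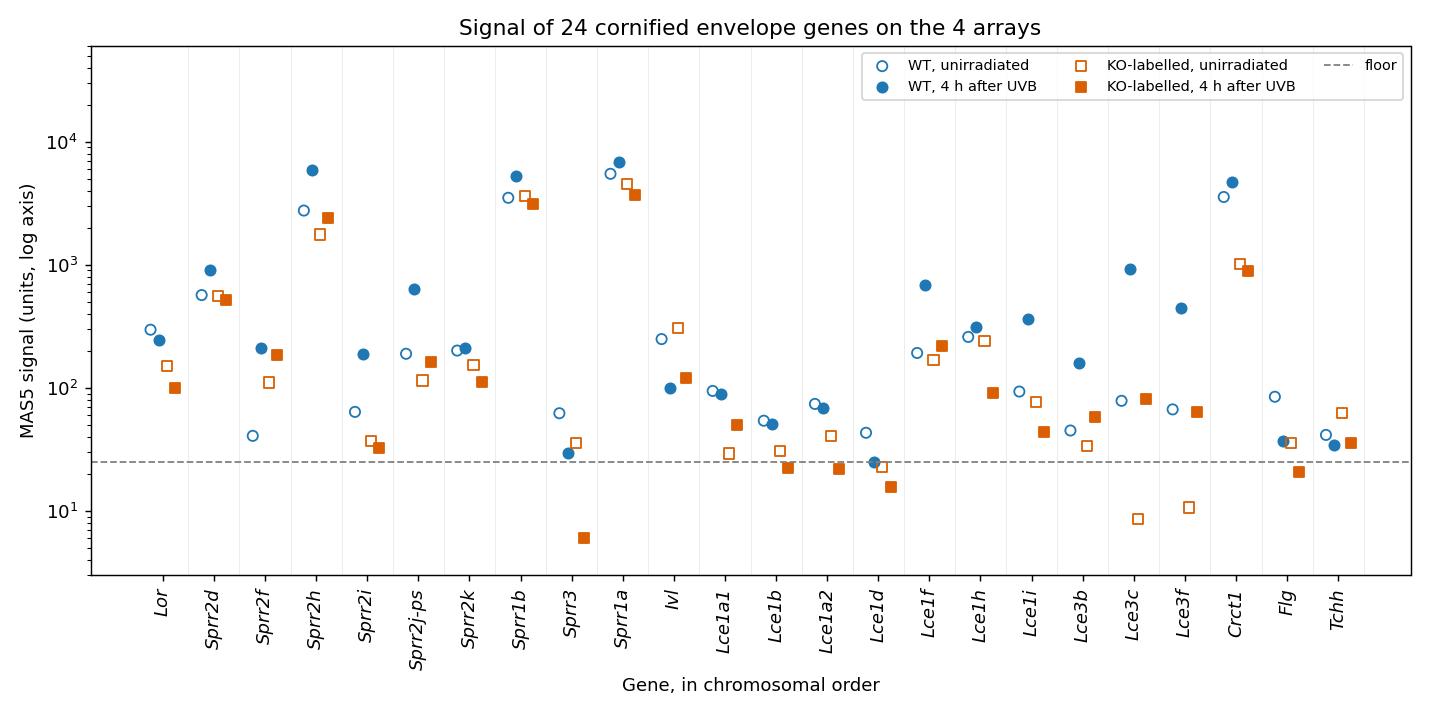
MAS5 signal (units, log axis) of the 24 members whose mean signal reached the floor, in chromosomal order, 1 point for each of the 4 arrays (circles WT, squares KO-labelled, open unirradiated, filled 4 h after UVB); the dashed line is the floor of 24.9 units. For Lce3c the filled circle lies at 922.1 units, above the other 3 arrays, which lie between 8.61 and 80.6 units.

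All 3 measured Lce3 genes were higher after UVB in both genotypes. Lce3c read 78.5 units without and 922.1 after UVB in WT, and 8.61 without and 80.6 after UVB in KO-labelled cells. Irradiated WT cells stood apart from the other 3 arrays, and unirradiated KO-labelled cells were in the background. Lce3c was thus 11.7-fold higher after UVB in WT, the first of 11379 genes ranked by that difference, and at least 3.24-fold higher in KO-labelled cells. Lce3f read 66.9, 445.3, 10.7 and 64.0 units in the same order, 6.65-fold higher in WT and at least 2.57-fold higher in KO-labelled cells, again with irradiated WT cells far above the rest. Lce3b read 45.1, 158.0, 33.8 and 58.3 units, 3.50-fold higher in WT and 1.72-fold higher in KO-labelled cells. In all 3 genes the irradiated WT array was the highest and the unirradiated KO-labelled array the lowest. Lce3b and Lce3c are read by _x_at sets, and Lce3f is read by a set without such a suffix.

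The promoters of Lce3c and Lce3f are shown because these members had the highest ratios after UVB in WT, with irradiated WT cells far above every other array. Lce3b is shown because it is the other measured member of the family. The sequences are the 250 bases before each start in RefSeq's annotation of GRCm38.p6, all on the plus strand. They lie at chr3:92944236-92944485 for Lce3c, chr3:92991967-92992216 for Lce3f and chr3:92932729-92932978 for Lce3b. Capitals mark the motif GATAAAAG and the longest run of letters that Lce3c and Lce3f have in common.
Lce3c: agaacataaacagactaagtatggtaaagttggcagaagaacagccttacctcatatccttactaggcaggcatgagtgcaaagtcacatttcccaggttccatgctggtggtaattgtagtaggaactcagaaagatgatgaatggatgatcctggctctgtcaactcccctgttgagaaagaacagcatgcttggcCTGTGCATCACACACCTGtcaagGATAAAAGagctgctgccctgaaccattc
Lce3f: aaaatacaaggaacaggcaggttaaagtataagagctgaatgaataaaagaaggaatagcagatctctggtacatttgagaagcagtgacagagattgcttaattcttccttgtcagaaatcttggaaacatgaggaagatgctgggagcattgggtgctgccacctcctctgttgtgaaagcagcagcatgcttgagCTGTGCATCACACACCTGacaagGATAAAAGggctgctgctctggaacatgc
Lce3b: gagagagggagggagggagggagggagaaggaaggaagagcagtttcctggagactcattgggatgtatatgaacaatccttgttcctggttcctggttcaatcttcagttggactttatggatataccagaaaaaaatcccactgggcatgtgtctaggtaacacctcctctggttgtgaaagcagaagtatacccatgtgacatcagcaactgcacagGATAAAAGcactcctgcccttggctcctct
The common run, CTGTGCATCACACACCTG, is 18 bases long and was found, on either strand, in 3 of 32851 promoter entries, those of Lce3c, Lce3f and Lce3e, of which Lce3e is not among the members measured here. Over the last 100 bases before the start, compared without gaps, Lce3c and Lce3f had 66 identical bases, whereas Lce3b had 35 in common with Lce3c and 29 with Lce3f; the median over all 406 pairs of members with an entry was 28. GATAAAAG lay 29 or 30 bases before the start in Lce3b, Lce3c and Lce3f, and in 0.779% of all entries. These letters and the common run were chosen after the sequences had been read, and a match is not a measured binding site. Of the 32 members, 29 have a promoter entry, and Crct1, Lce1f and Sprr2j-ps have none.

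The Lce1 genes, which encode late envelope proteins of a neighbouring cluster, did not share a single pattern. Lce1f read 192.3 units without and 685.5 after UVB in WT, and 168.4 without and 217.0 after UVB in KO-labelled cells, 3.56-fold higher after UVB in WT and 1.29-fold higher in KO-labelled cells. Its second probe set read 23.8, 128.5, 25.1 and 44.1 units, with the irradiated WT array again the highest. Lce1i read 93.4, 365.2, 76.6 and 44.2 units, after UVB 3.91-fold higher in WT but 1.73-fold lower under the KO label. The genotypes moved in opposite directions as deposited; after quantile normalization the KO-labelled difference of Lce1i was 0.29 and that of WT 2.81. Lce1h read 259.6, 312.6, 239.5 and 90.1 units, so 3 arrays lay close together and irradiated KO-labelled cells were 2.66-fold below the unirradiated ones. The Lce1h difference in KO-labelled cells was -0.28 after quantile normalization and that in WT was 1.14, still of opposite sign. Lce1h and Lce1i are neighbours whose last 100 bases before the start have 89 identical bases, and both are read by _x_at sets.

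The remaining measured Lce1 members were dim and lower in KO-labelled than in WT cells without irradiation. Lce1a1 read 94.5 units without and 88.6 after UVB in WT, and 29.3 without and 50.1 after UVB in KO-labelled cells, with both WT arrays above both KO-labelled ones. Its dimmer probe set, without the _x_at suffix, read 48.1, 70.2, 14.5 and 11.8 units. The 2 sets had the same genotype order but not the same UVB direction in WT. In KO-labelled cells the dimmer set was in the background on both arrays, so no UVB direction is given for Lce1a1. Lce1a2 read 74.1, 69.0, 40.4 and 22.0 units and Lce1b 54.1, 50.6, 30.9 and 22.2 units, again with WT above KO-labelled cells throughout. Their UVB differences in WT were -0.10 for both as deposited and 0.93 and 0.89 after quantile normalization, so the scaling sets them. Lce1d, at 43.2, 24.9, 22.9 and 15.6 units, reached the floor only in WT cells.

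The Sprr2 genes, which encode small proline-rich cross-bridging proteins, had a log2 difference above 0 after UVB in WT cells in all 6 measured members. Sprr2f, Sprr2h, Sprr2i and Sprr2j-ps passed 2-fold, whereas Sprr2d was 1.60-fold and Sprr2k 1.05-fold above the unirradiated cells. Sprr2h read 2759 units without and 5946 after UVB in WT, and 1765 without and 2406 after UVB in KO-labelled cells. It was 2.15-fold higher after UVB in WT and 1.36-fold higher in KO-labelled cells, and both KO-labelled arrays lay below both WT arrays. The pseudogene Sprr2j-ps read 189.4, 630.9, 114.9 and 163.0 units, with the same order of arrays, 3.33-fold and 1.42-fold higher. Sprr2i read 63.8, 188.9, 36.9 and 32.2 units, 2.96-fold higher in WT but 1.14-fold lower under the KO label, so that the irradiated WT array stood alone. After quantile normalization Sprr2i was higher in KO-labelled cells too, by 0.77 on the log2 scale, beside 2.47 in WT.

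Sprr2f differed from its relatives in the unirradiated cells. It read 40.8 units without and 212.2 after UVB in WT, and 110.6 without and 183.7 after UVB in KO-labelled cells. Unirradiated KO-labelled cells were 2.71-fold above unirradiated WT cells, and this was the only member at least 2-fold higher under the KO label, with a value of 1.18 after quantile normalization; the irradiated arrays lay within 1.16-fold of each other. Sprr2d read 567.9, 907.6, 561.5 and 514.7 units and Sprr2k 201.1, 210.6, 153.9 and 111.8 units. For both, KO-labelled cells were lower after UVB as deposited and higher after quantile normalization, at 0.71 and 0.65. The probe sets shared by the near-identical Sprr2a genes were not assigned to a member. The 2 bright ones read 5196 to 7761 units over the 4 arrays. Both were lower after UVB in each genotype as deposited, by at most 1.23-fold. Close copies may share probes throughout this family, so a value can hold signal of a relative, above all for the _s_at set of Sprr2h.

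Promoters of Sprr2f, Sprr2h and Sprr2i are shown because their promoters hold the same 3 motifs while their values on the 4 arrays differ. Over the last 100 bases before the start, Sprr2h had 46 bases identical with Sprr2f and 52 with Sprr2i. They are the 250 bases before the start on the plus strand of GRCm38.p6 (RefSeq), at chr3:92364937-92365186, chr3:92385435-92385684 and chr3:92407741-92407990, and capitals mark the AP-1 motif, the octamer motif and the TATA box. The promoter of Ivl at chr3:92573736-92573985, minus strand, is given beside them. Ivl holds the AP-1 motif and the TATA box and was lower after UVB as deposited. Its WT difference after quantile normalization was -0.28 on the log2 scale.
Sprr2f: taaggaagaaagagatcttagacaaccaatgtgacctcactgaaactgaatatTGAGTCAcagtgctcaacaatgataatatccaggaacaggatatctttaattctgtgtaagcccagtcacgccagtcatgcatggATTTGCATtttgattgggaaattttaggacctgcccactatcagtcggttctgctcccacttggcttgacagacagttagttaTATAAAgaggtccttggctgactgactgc
Sprr2h: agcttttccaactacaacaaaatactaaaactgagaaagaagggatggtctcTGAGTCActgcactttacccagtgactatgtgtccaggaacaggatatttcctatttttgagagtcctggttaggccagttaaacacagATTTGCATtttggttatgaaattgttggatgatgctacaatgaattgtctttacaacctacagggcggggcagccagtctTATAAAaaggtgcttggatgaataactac
Sprr2i: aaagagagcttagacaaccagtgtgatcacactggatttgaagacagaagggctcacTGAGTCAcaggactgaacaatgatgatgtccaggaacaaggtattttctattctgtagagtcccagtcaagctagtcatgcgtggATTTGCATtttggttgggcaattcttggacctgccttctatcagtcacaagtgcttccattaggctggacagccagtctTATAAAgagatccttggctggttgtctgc
Ivl: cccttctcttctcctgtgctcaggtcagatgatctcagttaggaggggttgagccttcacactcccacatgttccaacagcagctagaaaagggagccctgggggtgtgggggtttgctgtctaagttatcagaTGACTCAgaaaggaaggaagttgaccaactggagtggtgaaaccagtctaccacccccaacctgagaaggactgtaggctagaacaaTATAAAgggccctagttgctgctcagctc
The AP-1 motif, searched as TGANTCA on both strands, was found in 11 of the 29 member promoters and in 6.75% of all 32851 entries of this length. The octamer ATTTGCAT was found in 5 of 29, all of them Sprr2 genes, and in 1.60% of all entries, and the TATA box TATAAA in 15 of 29 and in 12.4% of all entries. All 5 Sprr2 promoters with an entry hold TGAGTCA between 193 and 198 bases before the start, ATTTGCAT between 108 and 112 and TATAAA at 29. Sprr2k holds a second AP-1 motif at 182, and none of the Lce promoters holds TGANTCA in this window. Motifs were counted as letters only and none overlaps another in the sequences shown. A relation between motifs and UVB responses was not tested.

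**Figure D2:**
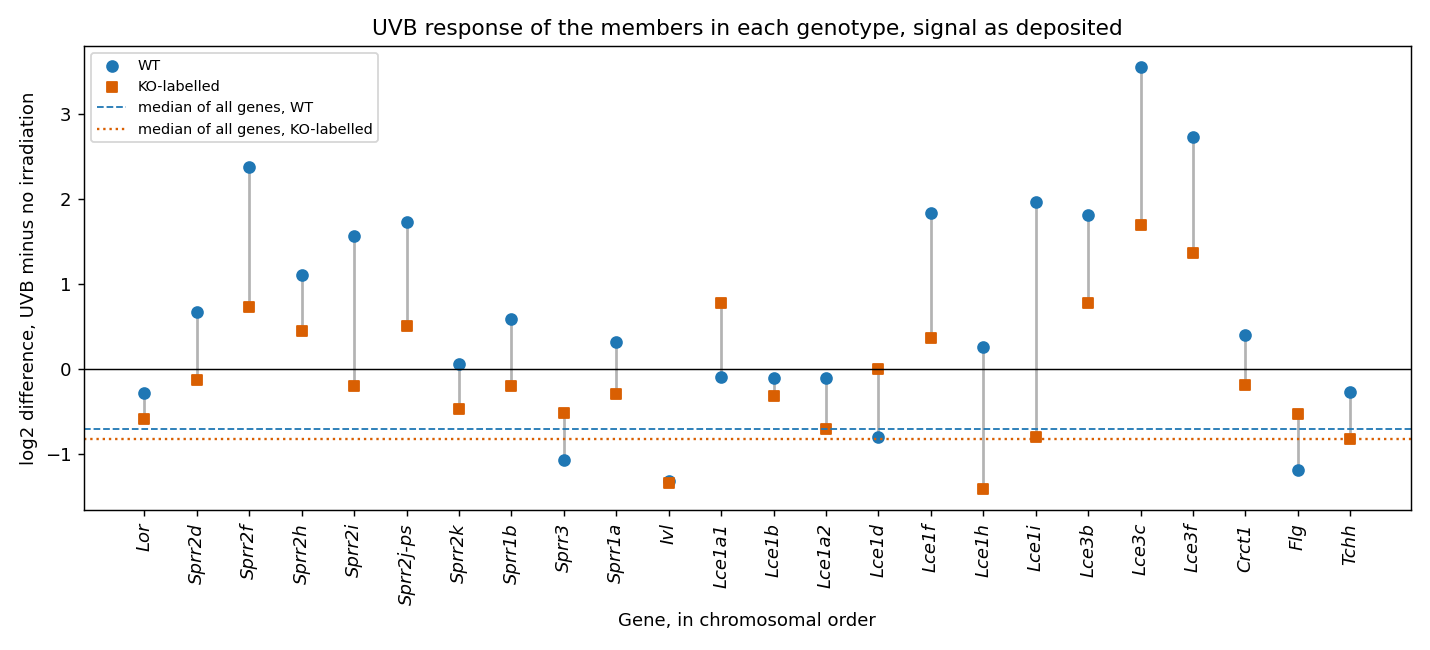
Log2 difference between irradiated and unirradiated cells for the 24 members in chromosomal order, with WT as circles, KO-labelled as squares and a grey line joining the pair; signal as deposited, values below the floor raised to it, 1 array per group. The dashed and dotted lines are the medians of all 11379 genes, -0.70 in WT and -0.82 in KO-labelled cells. The WT point lies above the KO-labelled point for 20 of the 24 members, and the same order holds for 6804 of the 11379 genes.

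Sprr1a and Sprr1b, small proline-rich genes induced in stressed and stratifying epithelia, were bright on every array. Sprr1a read 5487 units without and 6877 after UVB in WT, and 4521 without and 3699 after UVB in KO-labelled cells. Sprr1b read 3503, 5259, 3602 and 3138 units in the same order. Their log2 differences after UVB were 0.33 and 0.59 in WT, and -0.29 and -0.20 in KO-labelled cells. After quantile normalization the KO-labelled differences were 0.03 and 0.19, so their direction in KO-labelled cells depends on the scaling. Sprr3, a relative of the internal epithelia, read 62.3, 29.8, 35.5 and 6.00 units, lower after UVB in both genotypes.

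Involucrin and loricrin, the classical scaffold and bulk proteins of the envelope, did not follow the Lce3 and Sprr2 genes as deposited. Ivl read 249.3 units without and 100.7 after UVB in WT, and 306.7 without and 121.3 after UVB in KO-labelled cells. As deposited it was 2.48-fold and 2.53-fold lower after UVB. After quantile normalization the 2 differences were -0.28 and -0.26 on the log2 scale. The 2 genotypes differed in the response as deposited by only 0.03 on the log2 scale. Ivl was the member with the highest value of KO-labelled minus WT after UVB, at 0.27. Its dimmer set was also lower after UVB in both genotypes and higher in KO-labelled cells. Lor read 297.1, 243.9, 149.9 and 99.9 units, with both WT arrays above both KO-labelled arrays. Its UVB differences were -0.28 in WT and -0.59 in KO-labelled cells as deposited. After quantile normalization they were 0.61 and 0.54, so the scaling sets their direction. A second Lor set, with the suffix _s_at, read 291.5, 162.1, 144.2 and 66.2 units in the same order, whereas the third and dimmest read 39.7, 23.9, 48.1 and 40.6 units with KO-labelled cells higher.

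Crct1, a small gene of the complex between the Lce3 and Lce1m genes, had both KO-labelled arrays far below both WT arrays. It read 3556 units without and 4693 after UVB in WT, and 1019 without and 899.1 after UVB in KO-labelled cells. KO-labelled cells were 3.49-fold lower without irradiation and 5.22-fold lower after UVB, while after UVB it was 1.32-fold higher in WT but 1.13-fold lower under the KO label. Its UVB differences after quantile normalization were 0.61 in WT and 0.50 in KO-labelled cells. Flg, which encodes the filaggrin precursor, read 84.8, 37.4, 35.8 and 20.7 units, 2.27-fold lower after UVB in WT; unirradiated KO-labelled cells were 2.37-fold below unirradiated WT cells. Tchh, known from the inner root sheath of hair, read 41.5, 34.5, 62.6 and 35.6 units and passed 2-fold in no comparison.

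An additive model of irradiation and genotype over the 4 arrays was the only test the design allows. The fit (limma) took the log2 values of all 11379 genes, with Benjamini-Hochberg adjustment over them. Its 1 residual degree of freedom is the disagreement between the 2 genotypes' responses, pooled with that of other genes of similar signal, so the adjusted p-values hold no spread between cultures. For UVB, 7 of 24 members rose, against 0.703% of all genes, and 4 fell, against 69.4%. With values below the floor raised to it, Lce3c rose by 2.62 log2 units (SE 0.36, limma adjusted p = 0.000182), Lce3f by 2.05 (SE 0.31, limma adjusted p = 0.000308), and Sprr2f by 1.56 (SE 0.33, limma adjusted p = 0.00241). Lce3b, Lce1f, Sprr2j-ps and Sprr2h were the other 4, with rises between 0.78 and 1.297, and each was higher after UVB in both genotypes. Those that fell were Ivl, by 1.32 (SE 0.17, limma adjusted p = 0.0001), and Flg, Sprr3 and Lor, with limma adjusted p of 0.0223, 0.0332 and 0.0441. After quantile normalization 15 of 24 rose, against 20.2% of all genes, and 0 fell, and Lor was then among those that rose, so the 4 falls describe the arrays as deposited. Without the filter on mean signal, in a limma fit of all 18193 genes, 0 members passed in either direction, with 0 higher and 1 lower at an unadjusted p under 0.05.

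KO-labelled cells had lower signal of most members than WT cells, in a wider range of genes after UVB than before it. Without irradiation 5 of 24 members were lower by 2-fold or more under the KO label (Crct1, Flg, Lce1a1, Lce3c and Lce3f), against 0.729% of all genes, and 1 was higher (Sprr2f), against 1.63%. After UVB 13 were at least 2-fold lower, against 1.47% of all genes, and 0 were higher, against 1.41%. Lce3c was 11.4-fold lower after UVB, Lce1i 8.27-fold, Lce3f 6.95-fold, Sprr2i 5.86-fold and Crct1 5.22-fold, and these ranked 2, 4, 6, 8 and 12 from the lowest of 11379 genes. The others were Sprr2j-ps at 3.87-fold, Lce1h at 3.47-fold, Lce1f at 3.16-fold, Lce1a2 at least 2.77-fold, Lce3b at 2.71-fold, Sprr2h at 2.47-fold, Lor at 2.44-fold and Lce1b at least 2.03-fold lower. The median over the 24 members was -0.68 without irradiation and -1.16 after UVB, beside 0.16 and 0.05 for all genes. Quantile normalization gave 6 of 24 lower without irradiation (0.718% of all genes) and 14 of 24 after UVB (2.73% of all genes), with medians of -0.69 and -1.23. The comparisons without and after irradiation share no array.

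**Figure D3:**
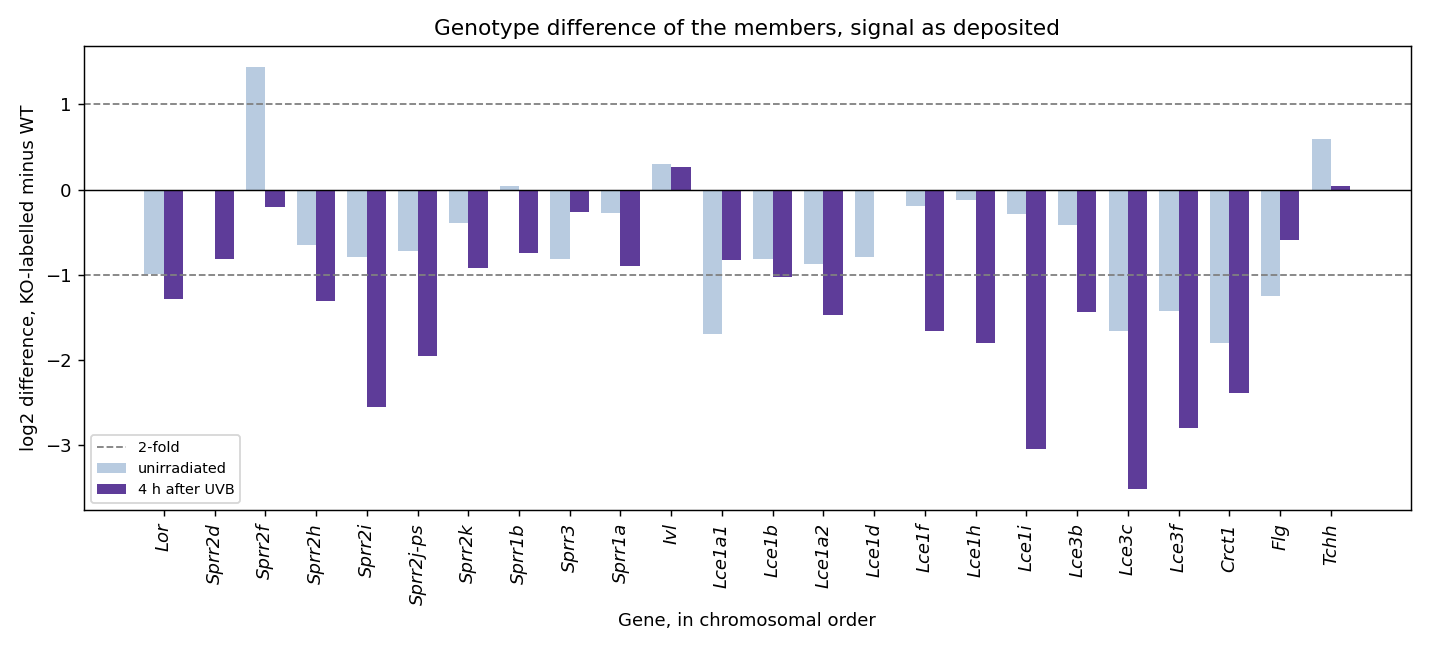
Log2 difference between KO-labelled and WT cells for the 24 members in chromosomal order, unirradiated (light bars) and 4 h after UVB (dark bars), signal as deposited with values below the floor raised to it, 1 array per group; dashed lines mark 2-fold. After UVB 22 of the 24 bars lie below 0, and the lowest is that of Lce3c at -3.52.

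In the additive model 6 of 24 members fell with the KO label over both conditions, against 0.642% of all genes, and 0 rose, against 0.967%, with 0 higher at an unadjusted p under 0.05. The log2 change was -2.09 for Crct1 (SE 0.14, limma adjusted p = 0.000277), -2.59 for Lce3c (limma adjusted p = 0.00963), -2.11 for Lce3f (limma adjusted p = 0.0117) and -1.14 for Lor (limma adjusted p = 0.0137). Sprr2h and Sprr2j-ps changed by -0.98 and -1.34. Quantile normalization gave 8 members that fell, against 1.25% of all genes, the same 6 with Sprr1a and Sprr2i. With limma's moderation without the intensity trend, with probe sets of a gene averaged, or without the filter on mean signal, 0 of the members passed, and the limma adjusted p of Crct1 was 0.27, 0.0526 and 0.647. At an unadjusted p under 0.05, limma gave 15, 16 and 3 members lower in these fits.

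The UVB response was lower in KO-labelled than in WT cells for 20 of the 24 members, as it was for 6804 of all 11379 genes. Of 24 members, 9 had a response lower by 2-fold or more under the KO label (Lce1f, Lce1h, Lce1i, Lce3b, Lce3c, Lce3f, Sprr2f, Sprr2i and Sprr2j-ps), against 2.94% of all genes, and 0 had a response at least 2-fold higher, against 1.34%. Lce1i had the lowest difference of responses of all 11379 genes, at -2.76, followed among the members by Lce3c at -1.86, Sprr2i at -1.76, Lce1h at -1.68 and Sprr2f at -1.65. For Lce3c and Lce3f the unirradiated KO-labelled value lay below the floor, so their response in KO-labelled cells is a lower bound and the difference may be smaller in size. With a lower floor, at the 25th percentile, these 2 differences were -0.45 and -0.15, no longer 2-fold. Sprr2f lay at similar levels after UVB in both genotypes and differed in the unirradiated cells. After quantile normalization 7 of 24 members had a response at least 2-fold lower, against 2.72% of all genes. There is 1 value of each response, so the difference of responses was not tested.

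**Figure D4:**
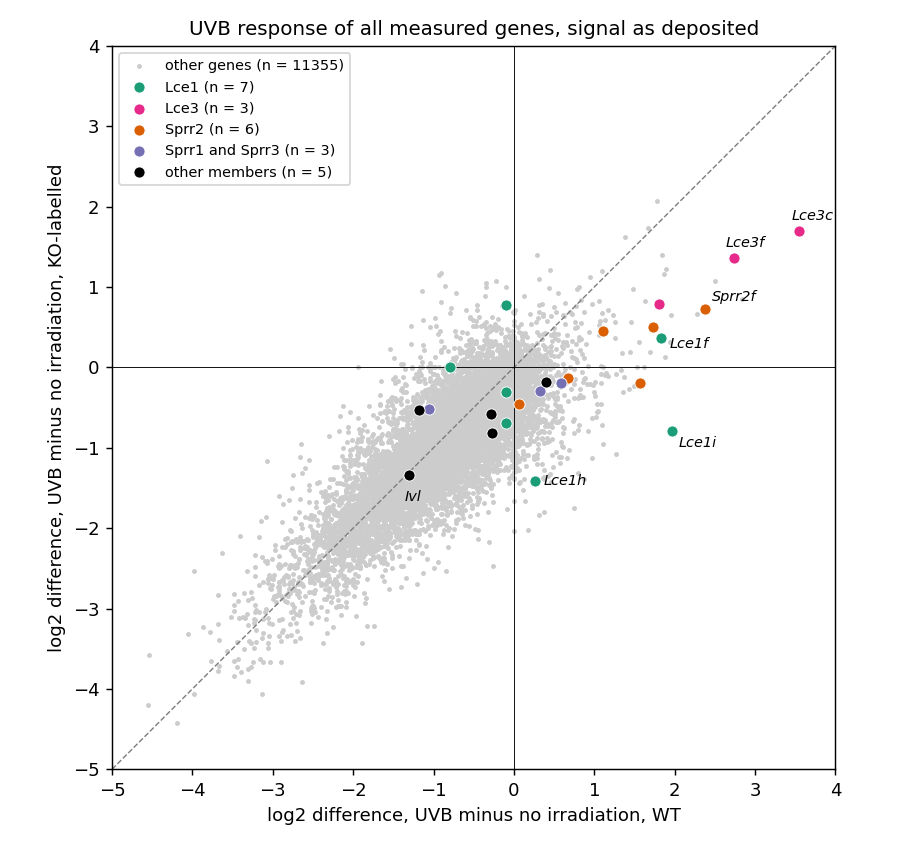
UVB response (log2 difference, irradiated minus unirradiated) in WT on the x axis and KO-labelled cells on the y axis for 11379 genes, signal as deposited; members are coloured by family and the dashed line marks equal responses. Lce3c lies farthest to the right, at 3.55 in WT and 1.70 in KO-labelled cells, and Lce1i farthest below the line, at 1.97 and -0.79.

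Along chromosome 3 the members at least 2-fold higher after UVB in WT as deposited did not form 1 block. In the order Lor, the Sprr genes, Ivl, Smcp, the Lce1 genes, the Lce3 genes, Crct1, Lce1m, Flg, Hrnr, Rptn and Tchh, the ratios of at least 2-fold lay in Sprr2f to Sprr2j-ps, in Lce1f and Lce1i, and in Lce3b, Lce3c and Lce3f. Between them lay Sprr2k, Sprr1b, Sprr3, Sprr1a and Ivl, with log2 differences from 0.59 to -1.31 as deposited. The stretch from Lce1a1 to Lce1d also lay between them. Its measured members were between -0.79 and -0.09 as deposited and between -0.01 and 0.96 after quantile normalization. Neighbouring genes could differ in response, as Lce1h and Lce1i did in WT cells, at 0.27 and 1.97 on the log2 scale as deposited. After quantile normalization these were 1.14 and 2.81, both past 2-fold. With that scaling the members past 2-fold were Sprr2d to Sprr2j-ps, Lce1f to Lce1i, and Lce3a, Lce3b, Lce3c and Lce3f. Lce1l, which lies between Lce1i and Lce3a, was in the background. The layout thus depends on the scaling.

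Other genes of the envelope were lower under the KO label in part. Of 13 genes for cross-linking enzymes, scaffold proteins and secreted envelope proteins, 0 rose and 7 fell with UVB in the additive model (3 and 2 after quantile normalization), beside 69.4% of all genes that fell as deposited. After quantile normalization 20.2% of all genes rose and 2284 of 11418 fell. With the KO label 0 rose, against 0.967% of all genes, and 5 fell, against 0.642% (Asprv1, Cdsn, Cnfn, Sbsn and Tgm1). Cnfn, which encodes cornifelin, read 1944 units without and 2029 after UVB in WT, and 639.1 without and 328.4 after UVB in KO-labelled cells, and Tgm1, the main envelope transglutaminase of keratinocytes, 1052, 898.4, 560.8 and 353.2 units. With the KO label the log2 change was -1.13 for Tgm1 (limma adjusted p = 0.00605) and -2.12 for Cnfn (limma adjusted p = 0.00208). Both, named here after their values were seen, had the WT arrays above the KO-labelled arrays. Among the genes of this list at or above the floor on all 4 arrays, Ppl and Pkp1 encode periplakin and plakophilin. They had the largest UVB differences in WT as deposited, at -0.69 and -0.47 on the log2 scale. The median of all genes was -0.70, so neither lay below it. After quantile normalization Ppl was at -0.12 and Pkp1 at -0.30. Tgm5, a further transglutaminase that was below the floor on 2 arrays, was at least 2.44-fold lower in WT as deposited. Its WT difference after quantile normalization was -0.97. Of 10 measured S100 genes of the same chromosomal complex, 2 fell with the KO label, against 0.642% of all genes. These were S100a8 and S100a9, which encode the subunits of calprotectin. S100a8 read 1522, 1165, 517.8 and 270.1 units in the same array order, and S100a9 883.1, 785.4, 266.1 and 179.3 units. Of the 10 genes 0 rose and 3 fell with UVB as deposited, and 4 rose and 0 fell after quantile normalization. These counts are to be read against the UVB shares of all genes given above. S100a4, for which the UVB difference in WT was 0.23 on the log2 scale, read 440.8, 518.0, 766.0 and 637.0 units, higher in KO-labelled cells.

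Of the markers of the labelled cell type, Krt5 and Krt14 of basal keratinocytes were bright on all arrays, at 11820 to 13800 units. Trp63, also on the basal list, read 1676 units without and 150.5 after UVB in WT, and 1931 and 235.5 in KO-labelled cells. Its WT difference was -2.70 after quantile normalization. For Itga6, Itgb4 and Col17a1 the WT differences were -1.37, -0.62 and -0.46 as deposited, and -0.98, -0.06 and -0.21 after quantile normalization. The summed signal of the 6 basal markers, in which Krt5 and Krt14 weigh most, was between 29630 and 36780 units. Krt1 and Krt10, keratins of the first suprabasal layers, rose with the KO label by 0.89 and 1.10 on the log2 scale (limma adjusted p = 0.0360 and 0.00698), but Krt1 missed the threshold with median centring (limma adjusted p = 0.0538). Of the other 4 genes of that list, Sbsn fell, at -0.49 (limma adjusted p = 0.0277), and Dsg1a, Dsc1 and Krtdap did not pass. The summed signal of the 6, in which Krtdap and Sbsn weigh most, was 17150 to 18760 units in WT and 15900 to 17660 units in KO-labelled cells. The median log2 difference of the 6, KO-labelled minus WT, was 0.286 without irradiation and 0.565 after UVB. Markers of other cells moved with the genotype as well. All 9 fibroblast markers were tested and their summed signal was 2803 to 3584 units in WT and 4782 to 6885 units in KO-labelled cells. Of these, 5 of 9 (Col1a1, Col1a2, Col3a1, Thy1 and Vim) rose with the KO label, against 0.967% of all genes. The 8 melanocyte markers summed to 4846 to 6179 units in WT and 5637 to 8694 units in KO-labelled cells, with 0 passing the additive model for genotype. Their part in the lower member signals was not tested. In bulk samples fewer cells of a type and less RNA per cell cannot be told apart. Leukocyte markers summed to 61.7 to 111.6 units, with Ptprc, Cd207, Itgam and Cd3e below the floor on every array, and endothelial markers to 41.7 to 67.4 units. Muscle markers summed to 151.3 to 171.1 units, Merkel cell markers to 35.7 to 98.8 units and erythroid markers to 6.82 to 25.9 units. The hair follicle list, which holds Tchh, summed to 56.8 to 96.8 units, and Krt8 and Krt18 of simple epithelia to 313.7 to 455.8 units.

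**Figure D5:**
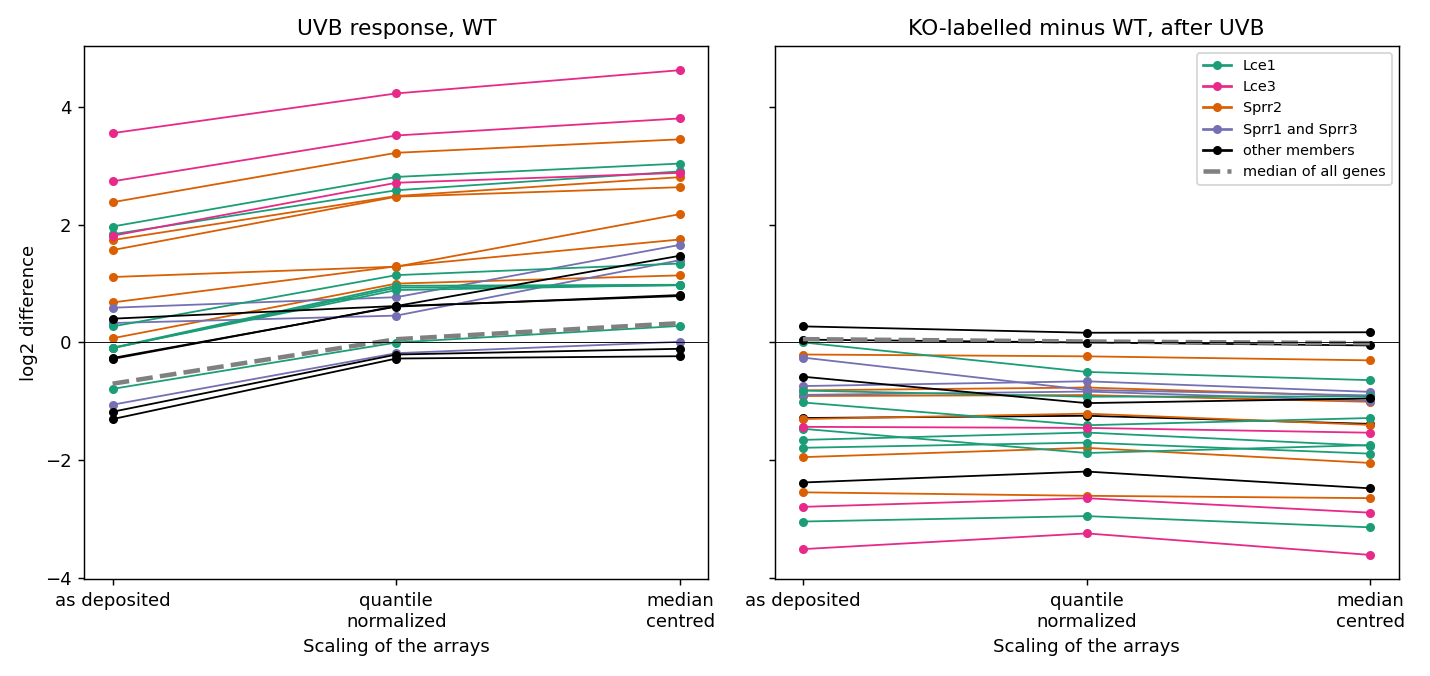
Log2 differences of the 24 members under 3 scalings of the arrays, with 1 line per member coloured by family and the dashed grey line for the median of all genes; left, UVB response in WT cells, right, KO-labelled minus WT after UVB. The left lines shift with the median of all genes from -0.70 to 0.32. On the right the medians of the members were -1.16, -1.23 and -1.34. Single lines of dim members moved more, as that of Lce1d did from -0.003 to -0.505 and -0.645.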

How the data were processed

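Expression was measured on 4 arrays, 1 for each genotype and irradiation label; groups were taken from the sample titles. RNA was prepared by Trizol and RNeasy and made into biotinylated cRNA, per the labels' protocols. Per the submitters' processing notes the authors used MAS5, which gives linear signal, an intensity. Its version and scaling target do not appear in the sources used here. Because the deposited arrays differ in their median (18.7 to 34.5 units), scaling alternatives were run.

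Of 45101 probe sets, 64 are controls, 34945 carry 1 gene symbol, 932 several and 9160 none in the platform annotation; 34741 of those with 1 symbol were found in RefSeq (GRCm38.p6), where 0 symbols differed. Values below the floor were raised to it and log2 was taken. The additive model used limma 3.58.1 (lmFit, eBayes with trend) in R 4.3.3 at an adjusted p of 0.05. Its code was also run on simulated data with independent noise and UVB effects only. That run held no difference of response between genotypes and no spread between cultures, so it does not check the design. Alternatives were quantile normalization, median centring, a floor of 9.38 units (25th percentile) or 128.9 units (75th), a 1.5-fold threshold, averaging the sets of a gene, no _x_at or _s_at sets, no intensity trend and no signal filter. The members and lists were chosen with earlier results of these data known. Members were described by rule: those with the largest differences, those passing the additive model and the brightest of each family with all 4 values, others by range; of related lists, the genes passing the model or with the largest response.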

Additional observations from a re-analysis of the deposited data

Results flagged for a closer look

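The following members, with all 4 arrays at or above the floor, had UVB differences of opposite sign in the 2 genotypes as deposited, higher in WT and lower in KO-labelled cells unless stated; with 1 array per group none of these differences between genotypes was tested. On the log2 scale, the KO-labelled response minus the WT response was -2.76 for Lce1i, -1.76 for Sprr2i, -1.68 for Lce1h, -0.80 for Sprr2d, -0.79 for Sprr1b, -0.61 for Sprr1a, -0.58 for Crct1 and -0.53 for Sprr2k. Lce1a1 went the other way, at 0.87, and its 2 probe sets disagree in their UVB direction in WT. After quantile normalization the 2 responses had opposite signs for Lce1h alone among these 9.

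A signal also appeared in data not assigned to a member: a probe set annotated to several Sprr2a genes was 2.42-fold higher after UVB in WT, at 102.3 against 42.2 units, and 1.01-fold higher in KO-labelled cells, at 96.1 against 94.8 units. As for Sprr2f, the unirradiated WT array was the lowest of the 4. The rest lay between 94.8 and 102.3 units for this set, and between 110.6 and 212.2 units for Sprr2f.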

How the results depend on the processing

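With signal as deposited the UVB counts follow the scaling. For UVB in WT, quantile normalization gave 0 members lower and a median of 0.98, and median centring 15 higher, 0 lower and a median of 1.43. In KO-labelled cells quantile normalization gave 7 higher, 0 lower and a median of 0.52, and median centring 9, 0 and 0.88, so the median turned sign. In the additive model 15 rose and 0 fell with quantile normalization, and 16 and 0 with median centring. Lor turned sign to 0.58 and 0.67 under these scalings, and Flg to 0.081 and Sprr3 to 0.004 with median centring, where Sprr3 in WT was 0.007. A floor at the 75th percentile left 15 members. It gave 0 lower and a median of 0.68 for UVB in WT, 0 higher, 1 lower and -0.13 in KO-labelled cells, 0 higher, 1 lower and -0.12 for genotype without irradiation, 8 lower after UVB, and 1 that fell with UVB in the model. The floor at the 25th percentile (29 members) gave 4 lower for UVB in KO-labelled cells, 2 higher for genotype without irradiation and 11 that fell with the KO label. Without _x_at and _s_at sets (18 members) 5 were higher for UVB in WT, 1 higher and 1 lower in KO-labelled cells, 3 lower without irradiation and 5 lower in response, and 4 rose in the model. At 1.5-fold, 5 were higher and 6 lower for UVB in KO-labelled cells, 2 and 13 for genotype without irradiation, and 3 and 14 for the response. Without the signal filter 0 rose and 0 fell with UVB and 0 fell with the KO label; the last count was also 0 with the mean over probe sets and with no intensity trend (limma). The cause of these changes was not tested. Of the remaining values, 87 counts and medians were equal to the main value or within 1.5-fold of it. Of the single-gene values, 338 kept their call and direction, and 66 lost their call with the same direction. A further 11 lost it because both sides lay at the raised floor.

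No paired analysis was possible because the labels give no replicate numbers and each group has 1 array. Leaving out an array removes a whole group, so it gives no value. The number of arrays limits every comparison, and members near the floor have only bounds.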
